A study of Homo sapiens with 12 samples.

Results

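The 9 genes described here encode enzymes that activate or inactivate thiopurine drugs and that feed purine nucleotide synthesis. They were chosen by name from the deposited table of read counts, and all 9 were found among its 59611 gene symbols. Messenger RNA was counted in 2 human B-lineage acute lymphoblastic leukaemia cell lines, 697, known for a TCF3 fusion, and KOPN-8, known for a KMT2A fusion. Control 697 and control KOPN-8 cells had received an empty sgRNA vector and are labelled wild type for SETD2, the gene for the main histone methyltransferase that makes H3K36me3. The edited groups are 1 clone per line, BM_B in 697 and BA in KOPN-8, made with an sgRNA against SETD2 and labelled heterozygous knockout. Each of the 4 groups had 3 libraries, labelled as biological replicates, and the labels name no drug treatment.

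Thiopurines such as mercaptopurine are prodrugs used in maintenance treatment of this leukaemia. HPRT1 joins mercaptopurine to phosphoribosyl pyrophosphate (PRPP), which PRPS1 and PRPS2 make from ribose 5-phosphate. IMPDH1 or IMPDH2 and then GMPS turn the product into thioguanine nucleotides, which enter DNA. TPMT inactivates thiopurines by methylation, ITPA hydrolyses inosine triphosphates including thiolated ones, and NT5C2 removes the phosphate from purine nucleotide monophosphates. HPRT1, IMPDH1, IMPDH2, GMPS, PRPS1 and PRPS2 do the same chemistry on the cell's own purines.

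Promoter sequence is shown for TPMT, IMPDH1 and ITPA, the 3 genes whose mRNA differed between control and edited KOPN-8. Each sequence is the 250 bases before a RefSeq gene start (GRCh38.p14), 5′ to 3′ on the gene's strand, and capitals mark GGGCGG or its complement CCGCCC, the core of a GC box. They are reference sequences and were not read from these cells.
TPMT (chr6:18155078-18155327, minus strand): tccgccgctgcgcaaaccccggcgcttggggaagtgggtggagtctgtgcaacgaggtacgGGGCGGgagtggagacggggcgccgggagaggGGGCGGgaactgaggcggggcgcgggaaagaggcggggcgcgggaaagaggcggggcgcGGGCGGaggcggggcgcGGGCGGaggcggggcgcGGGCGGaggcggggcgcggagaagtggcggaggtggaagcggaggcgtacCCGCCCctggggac
IMPDH1 (chr7:128409983-128410232, minus strand): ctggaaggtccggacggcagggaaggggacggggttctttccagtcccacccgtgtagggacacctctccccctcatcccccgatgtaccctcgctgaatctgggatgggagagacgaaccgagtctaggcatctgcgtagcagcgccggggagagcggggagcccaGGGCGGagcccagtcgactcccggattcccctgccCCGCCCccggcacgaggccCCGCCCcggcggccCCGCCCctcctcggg
ITPA (chr20:3203815-3204064, plus strand): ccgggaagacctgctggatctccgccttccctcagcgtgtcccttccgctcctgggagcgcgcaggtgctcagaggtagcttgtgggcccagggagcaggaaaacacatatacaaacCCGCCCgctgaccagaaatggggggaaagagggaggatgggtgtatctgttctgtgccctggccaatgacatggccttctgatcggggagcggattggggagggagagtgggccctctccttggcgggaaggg
The TPMT window, taken at the more downstream of its 2 listed starts, held 6 matches to GGGCGG on either strand, the IMPDH1 window 4 and the ITPA window 1. The window at the other TPMT start (chr6:18155170-18155419), which overlaps it, held 4 matches, 31 CpG dinucleotides and 73.6% GC. At least 1 such match was found in 42.6% of 35116 promoter windows of the same length. The TPMT window held 37 CpG dinucleotides, the IMPDH1 window 23 and the ITPA window 11, against a median of 11 over all windows. GC content was 78.4% for TPMT, 71.6% for IMPDH1 and 62.4% for ITPA, against a median of 58% over all windows. Of the enzymes not called in KOPN-8, it was 79.6% for GMPS, 68.8% for HPRT1, 67.6% for PRPS2 and 63.6% for PRPS1. Their windows held 31, 24, 17 and 19 CpG dinucleotides and 4, 4, 1 and 2 matches to GGGCGG. The listed windows of NT5C2 had 73.6%, 33.6% and 28% GC, with 34, 3 and 0 CpG dinucleotides and 4, 0 and 0 matches. ITPA had 2 matches to CCAAT on either strand, a string found in 32% of all windows. None of the windows of TPMT, IMPDH1 and ITPA held CACGTG, which 6.34% of all windows held. A match is a string of letters and not a measured binding site.

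Library totals ran from 10378769 to 18278662 counts. Values are given as counts per 1000000 (CPM) with library sizes scaled by TMM, and unless another test is named, p-values are from edgeR's quasi-likelihood test with Benjamini-Hochberg adjustment over 15218 genes, called at an adjusted p under 0.05. The spread is estimated from all 12 libraries and may be technical. Since each edited group is 1 clone, the edit cannot be told apart from other differences of the clone. SETD2 mRNA was called higher in edited 697 (log2 fold change 0.44, edgeR adjusted p = 0.000103). It was not called in edited KOPN-8 (-0.10, edgeR adjusted p = 0.309), so SETD2 was not lower by the test in either clone. A gene-level count does not check the edit, since an edited allele can still be transcribed. All 9 B-lineage markers examined had counts in all 4 groups. One of them, DNTT, had a mean of 1966 CPM in control 697 but of only 2.02 and 0.402 CPM in the KOPN-8 control and edited groups. Another, MME, went the other way, with means of 3.71 and 9.30 CPM in control and edited 697 and of 967 and 759 CPM in control and edited KOPN-8. Of markers of other cells, the T-cell receptor gene TRAC stood at 87.7 and 54.2 CPM in control and edited KOPN-8, with CD3D at 0 counts and means of CD3E of 0.102 and 0.0615 CPM there. The receptor gene PDGFRB stood at 68.6 and 32.2 CPM in control and edited 697, with COL1A2, EPCAM and KRT19 at 0 counts. Another stromal marker, COL1A1, had means of 2.31 and 3.20 CPM in these groups. The 5 myeloid markers summed to between 0.883 and 5.71 CPM and the 4 erythroid markers to at most 0.0654 CPM. The part of TRAC-expressing or PDGFRB-expressing cells in the results was not tested.

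Per kilobase of transcript, IMPDH2 was the most abundant of the 9 mRNAs and TPMT the least abundant in all 4 groups. The lengths are those of the longest coding transcript in GENCODE 29, and levels per kilobase depend on that choice. In control 697 the order was IMPDH2 at 326 ± 26.8 CPM per kilobase (SD, n = 3), HPRT1 at 71.3 ± 1.56, PRPS1 at 50.9 ± 1.27, NT5C2 at 45.3 ± 1.07, ITPA at 45.3 ± 1.91, PRPS2 at 34.9 ± 4.33, IMPDH1 at 23.6 ± 0.229, GMPS at 23.3 ± 1.16 and TPMT at 2.44 ± 0.534 CPM per kilobase. NT5C2 and ITPA overlapped there, and so did IMPDH1 and GMPS, so that neither pair has an order beyond its spread. In control KOPN-8 the order was IMPDH2 (212 ± 11.9), HPRT1 (78.9 ± 0.744), PRPS1 (71.9 ± 1.24), NT5C2 (55.4 ± 1.96), PRPS2 (32.3 ± 0.649), ITPA (30.7 ± 0.485), IMPDH1 (28.96 ± 1.37), GMPS (17.8 ± 0.520) and TPMT (1.75 ± 0.210 CPM per kilobase). ITPA and IMPDH1 overlapped in that group.

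**Figure D1:**
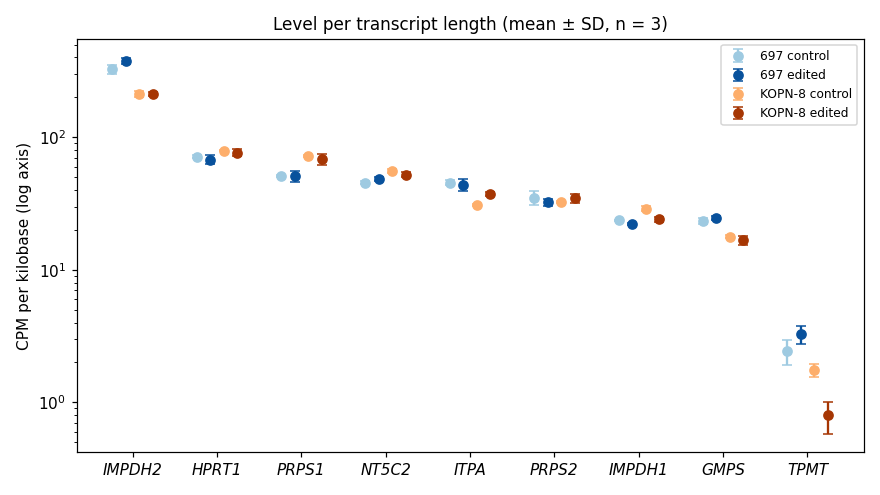
Level of each of the 9 mRNAs per kilobase of its longest coding transcript (CPM per kilobase, log axis) in the 4 groups, with points for the mean and bars for the SD of 3 libraries. IMPDH2 is highest and TPMT lowest in every group, and TPMT falls from 1.75 in control KOPN-8 to 0.795 in edited KOPN-8.

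The first comparison asked whether these mRNAs differed between the edited 697 clone and its control. In such bulk RNA, fewer cells with a transcript and less of it per cell cannot be told apart. The main fit took the 4 groups and left out replicate numbers. By it none of the 9 was called, against 9.45% of all genes tested (4.85% higher and 4.6% lower). Of the 9, 2 had an unadjusted p under 0.05 (IMPDH2 and TPMT), against 22.2% of all genes. With replicate numbers as a block, which were taken to pair the 697 libraries, 1 was called, IMPDH2. Among all genes the block called 2319 instead of 1438. The same comparison in DESeq2 also called 1, IMPDH2. Groups did not overlap for 3 of the 9 (IMPDH2 and NT5C2 higher, IMPDH1 lower), against 24.1% of all genes tested (12.5% higher and 11.6% lower).

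IMPDH2, which makes the guanine precursor xanthosine monophosphate, was the nearest to a call in 697 by the main fit. The 697 controls stood at 529, 582 and 495 CPM and the edited libraries at 634, 646 and 585 CPM. Every edited library was above every control, with the nearest 2 at 582 and 585 CPM. By edgeR the log2 fold change of 0.22 (SE 0.0711) had an adjusted p = 0.0579. Replicate numbers were taken to pair the 697 libraries. With replicate numbers as a block in both lines, the change of IMPDH2 in 697 was called (0.22, edgeR adjusted p = 0.00841). It was also called with no filter on low counts (adjusted p = 0.0381), in DESeq2 (0.0297), without control replicate 2 (0.0194) and without edited replicate 3 (0.0319). Over all 21 alternatives the adjusted p of IMPDH2 in 697 ran from 0.00841 to 0.254. IMPDH2 and SETD2 both lie on chromosome 3, with 36 tested genes between them. None of the 10 tested genes nearest to IMPDH2 was called in 697, against 9.45% of all genes tested.

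TPMT counts were low in 697, at 111, 105 and 128 reads in the controls and 150, 116 and 118 reads in the edited libraries. Scaled for depth, these were 7.26, 6.35 and 9.64 CPM against 11.2, 8.54 and 11.5 CPM. The groups overlapped, since the lowest edited library lay below the highest control. The log2 fold change was 0.43 (SE 0.181, 95% interval 0.05 to 0.80) and was not called by edgeR (adjusted p = 0.156).

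The other 7 mRNAs lay close to their controls in 697. HPRT1, the salvage enzyme that starts thiopurine activation, had 98.6, 103 and 99.4 CPM in the controls against 95.9, 102 and 87.9 CPM in edited cells (log2 fold change -0.07, 95% interval -0.21 to 0.07). GMPS, which makes guanosine monophosphate, had 215, 196 and 200 CPM against 219, 207 and 221 CPM (0.08, -0.06 to 0.22). The edited ranges of HPRT1 and of GMPS overlapped the control ranges. IMPDH1 had 68.1, 68.6 and 67.3 CPM in control and 64.9, 62.9 and 64.0 CPM in edited 697 (-0.09, -0.23 to 0.05). NT5C2 had 156, 152 and 159 CPM against 164, 161 and 174 CPM (0.10, -0.04 to 0.23). IMPDH1 and NT5C2, like IMPDH2, had groups that did not overlap although the main edgeR fit gave no call. The log2 fold change was -0.05 for ITPA (-0.21 to 0.11), 0.00 for PRPS1 (-0.16 to 0.16) and -0.12 for PRPS2 (-0.29 to 0.05). PRPS2 had 1 control library, replicate 1 at 100.1 CPM, above the rest, which lay between 77.1 and 85.9 CPM.

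**Figure D2:**
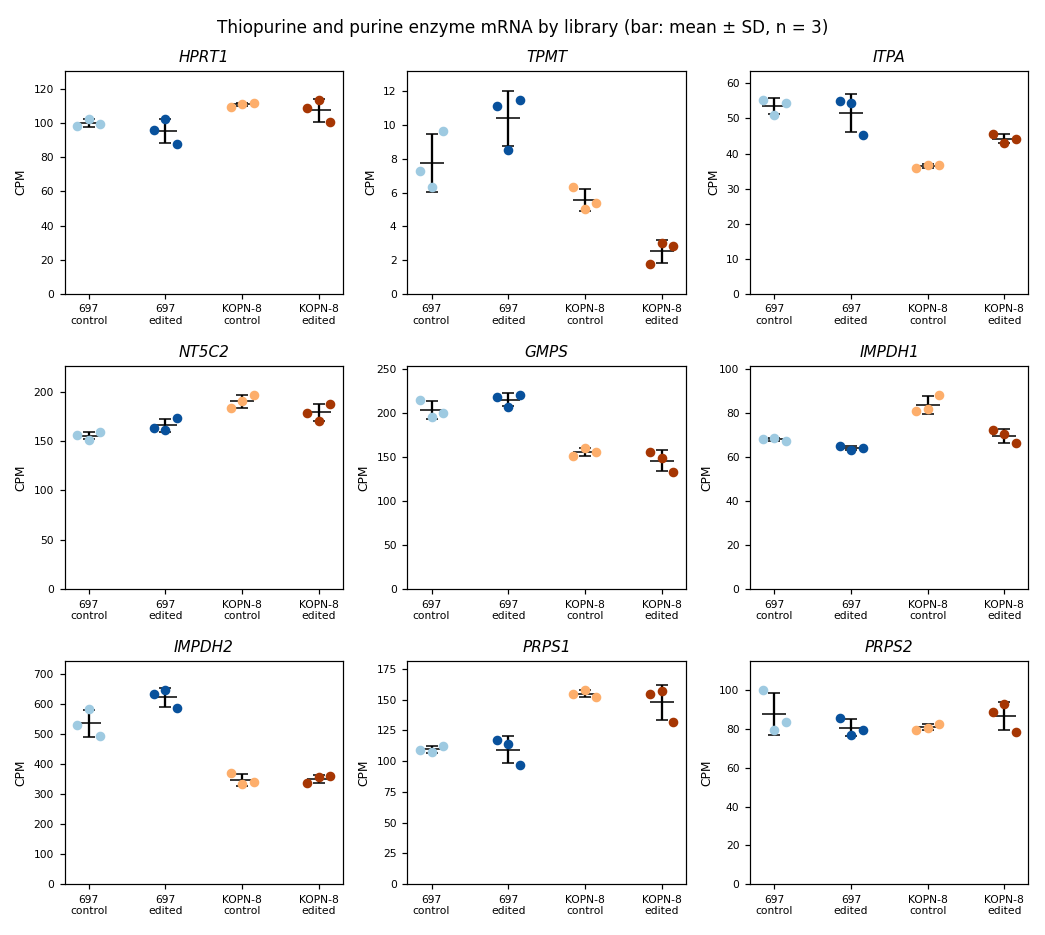
Level of each mRNA (CPM, axes from 0) in every library, with 1 point per library and a bar for the mean ± SD of 3 libraries. TPMT separates edited from control KOPN-8, with all edited libraries at or below 3.01 CPM and all controls at or above 5.01 CPM, and ITPA and IMPDH1 separate them by less.

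The second comparison asked the same of the edited KOPN-8 clone. Of the 9 mRNAs, 3 were called, TPMT and IMPDH1 lower and ITPA higher, or 33.3% against 28.7% of all genes tested (11.5% higher and 17.2% lower), a share near the background. These were also the 3 whose groups did not overlap, which held for 45.1% of all genes tested (20.4% higher and 24.7% lower). By the main fit none of the 9 was called in both edited clones, against 3.57% of all genes tested. By the same fit 6 were called in neither, against 65.4%. All 3 calls were made in each of the 21 alternatives run for this comparison.

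TPMT, the methyltransferase that inactivates thiopurines, had the largest change of the 9 in edited KOPN-8. Control libraries had 85, 86 and 99 reads, or 6.31, 5.01 and 5.38 CPM, and edited libraries had 33, 41 and 51 reads, or 1.75, 3.01 and 2.83 CPM. The highest edited library lay well below the lowest control. TPMT mRNA fell from 5.57 ± 0.668 to 2.53 ± 0.683 CPM (SD, n = 3), to 0.451 times the control level (log2 fold change -1.15, SE 0.216, edgeR adjusted p = 0.000212). Over the 21 alternatives the log2 fold change ran from -1.28 to -0.92. Of all genes tested, 9.08% had a larger fitted change in KOPN-8, in either direction. The copy TPMTP1 had 6 reads in all 12 libraries together and 0 in KOPN-8. Among the 10 tested genes nearest to TPMT on chromosome 6, 1 was called higher and 3 lower in KOPN-8, with a median log2 fold change of 0.05. Of all genes tested, 11.5% were called higher and 17.2% lower there.

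ITPA, which removes inosine triphosphate and its thiolated form, rose in edited KOPN-8. Control libraries had 35.8, 36.6 and 36.8 CPM and edited libraries 45.5, 43.0 and 44.2 CPM. The groups were far apart relative to their spread, with means of 36.4 ± 0.575 and 44.2 ± 1.26 CPM (SD, n = 3). The log2 fold change was 0.28 (SE 0.0806, edgeR adjusted p = 0.0101), and its adjusted p ran from 0.00164 to 0.0472 over the alternatives. Of the 10 tested genes nearest to ITPA on chromosome 20, 0 were called higher and 2 lower in KOPN-8, against 11.5% and 17.2% of all genes.

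IMPDH1, the less abundant of the 2 IMP dehydrogenases, fell in edited KOPN-8. Control libraries had 80.9, 81.5 and 88.0 CPM and edited libraries 72.1, 70.4 and 66.1 CPM. The ranges did not overlap, and the means were 83.4 ± 3.94 and 69.5 ± 3.12 CPM (SD, n = 3). The log2 fold change was -0.26 (SE 0.0666, edgeR adjusted p = 0.00372). The processed copy IMPDH1P8 had at most 9 reads in a KOPN-8 library, against at least 957 of IMPDH1, and up to 62 in a 697 library. How reads shared with copies were assigned is not given in the sources used here.

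IMPDH2 stayed near its control in KOPN-8, at 370.0, 333 and 341 CPM in the controls against 336, 355 and 359 CPM in edited cells. Its log2 fold change was 0.01 (95% interval -0.14 to 0.16). HPRT1 had 109.8, 111 and 112 CPM in control and 109, 114 and 100.5 CPM in edited KOPN-8 (-0.04, -0.19 to 0.10). For both genes the edited range overlapped the control range. PRPS1 had 154, 158 and 152 CPM against 155, 157 and 132 CPM (-0.07, -0.22 to 0.09), and PRPS2 had 79.8, 80.5 and 82.9 CPM against 88.8, 93.1 and 78.7 CPM (0.10, -0.07 to 0.27). GMPS (-0.09, -0.23 to 0.05) and the nucleotidase NT5C2 (-0.09, -0.22 to 0.04) were not called either. In PRPS1, HPRT1, GMPS, PRPS2 and IMPDH1 the lowest edited KOPN-8 library was replicate 3.

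**Figure D3:**
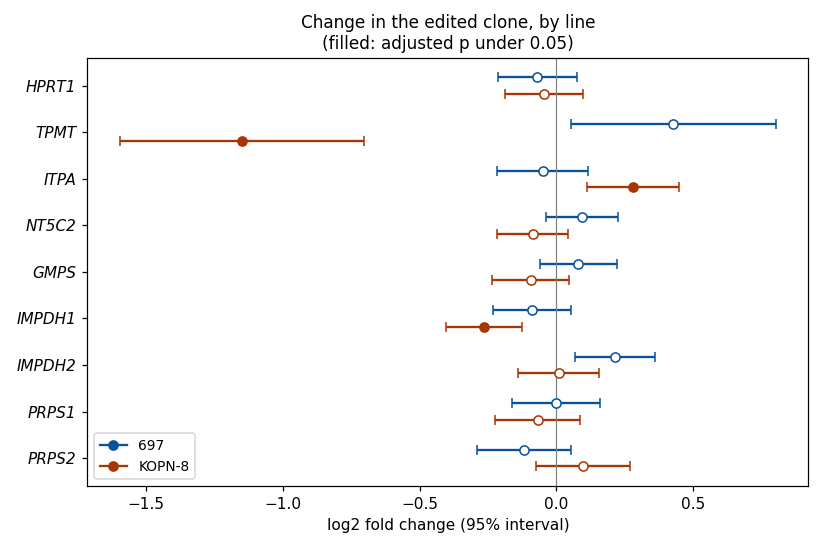
Log2 fold change of edited minus control for each gene in 697 and in KOPN-8, with 95% intervals from the edgeR fit and filled points for an adjusted p under 0.05. Only TPMT, ITPA and IMPDH1 in KOPN-8 are filled, at -1.15, 0.28 and -0.26, and the TPMT points lie on opposite sides of 0.

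The third comparison asked whether the change differed between the lines. Of the 9 mRNAs, 2 were called, TPMT and ITPA, or 22.2% against 19.5% of all genes tested (7.46% with the higher change in KOPN-8 and 12.1% with the lower). The TPMT change in KOPN-8 minus that in 697 was -1.58 on the log2 scale (SE 0.283, edgeR adjusted p = 0.000201), with estimates in opposite directions in the lines. It was called in each of the 20 alternatives run. For ITPA the difference was 0.33 (SE 0.113, edgeR adjusted p = 0.0417), and this call was lost in 10 of 20 alternatives, among them each that left out 1 KOPN-8 library. The adjusted p for ITPA was 0.0922, 0.0787 and 0.0702 without KOPN-8 control replicates 1, 2 and 3 and 0.0987, 0.0534 and 0.0621 without edited replicates 1, 2 and 3. It was 0.0684 and 0.0560 without 697 control replicates 1 and 3, 0.112 without 697 edited replicate 3 and 0.0592 with no filter on low counts. IMPDH1, called in KOPN-8 and not in 697, did not pass the test of the difference (-0.18, adjusted p = 0.228), and neither did IMPDH2 (-0.21, adjusted p = 0.171).

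The 2 control groups were compared to describe the lines themselves. In control KOPN-8 against control 697, 7 of the 9 were called, 3 higher and 4 lower, or 77.8% against 73.3% of all genes tested (36.6% higher and 36.7% lower). Groups did not overlap for 8 of the 9, 4 in each direction, against 76.3% of all genes tested (38% higher and 38.2% lower). These control libraries are the same ones that enter the comparisons with the edited clones. IMPDH2 (log2 difference -0.62, SE 0.0715), ITPA (-0.56, SE 0.0803), GMPS (-0.38, SE 0.0681) and TPMT (-0.48, SE 0.189) were lower in KOPN-8, while PRPS1 (0.50, SE 0.0766), IMPDH1 (0.30, SE 0.0670) and NT5C2 (0.29, SE 0.0631) were higher. The largest adjusted p among these 7 was 0.0270, for TPMT (edgeR quasi-likelihood), and the TPMT call was lost without 697 control replicate 3 (-0.32, adjusted p = 0.165), without KOPN-8 control replicate 2 (0.106) or 3 (0.0750), with library totals only (0.0652) and with limma on the deposited normalized values (0.0632). HPRT1 (0.15, adjusted p = 0.0589) and PRPS2 (-0.11, adjusted p = 0.217) were not called. HPRT1 was called with library totals only (0.22, adjusted p = 0.00455), without 697 edited replicate 3 (0.15, 0.0433) and without KOPN-8 edited replicate 3 (0.15, 0.0432), and PRPS2 with upper-quartile scaling (-0.20, adjusted p = 0.0273). Upper-quartile scaling moved the median of all genes in this comparison from -0.01 to -0.10. ITPA was lower in KOPN-8 than in 697 at baseline and rose in the edited clone to 44.2 CPM, still below the 53.6 CPM of control 697. TPMT was lower in KOPN-8 at baseline and fell further in the edited clone.

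The 2 IMP dehydrogenase genes and the 2 PRPP synthetase genes are paralogs, and the ratio of counts within a library does not depend on library scaling. The count of IMPDH2 was 7.77, 8.495 and 7.36 times that of IMPDH1 in control 697 and 9.78, 10.3 and 9.14 times in edited 697. In KOPN-8 it was 4.58, 4.08 and 3.88 times in the controls and 4.66, 5.05 and 5.44 times in the edited libraries. The edited libraries were above the controls in both lines without overlap, and both KOPN-8 groups lay below both 697 groups. Among single genes, groups did not overlap for 24.1% in 697 and 45.1% in KOPN-8, and no such share was taken over ratios. On the log2 scale the ratio was 2.97 ± 0.105 in control and 3.28 ± 0.0854 in edited 697 (SD, n = 3), a difference of 0.31. It was 2.06 ± 0.122 in control and 2.33 ± 0.110 in edited KOPN-8, a difference of 0.27. By gene, the log2 fold change in 697 was 0.22 for IMPDH2 and -0.09 for IMPDH1, neither called by the main fit. In KOPN-8 it was 0.01 for IMPDH2 and -0.26 for IMPDH1, so the larger change was in a different gene in each line. In each line the exact permutation test (two-sided, 3 against 3) gave p = 0.10, the smallest it can give, or 0.12 adjusted over the 6 ratio tests, so neither passes 0.05. For PRPS2 to PRPS1 the log2 ratio was -0.33 ± 0.175 and -0.43 ± 0.139 in control and edited 697, which overlapped (exact permutation p = 0.50). It was -0.93 ± 0.0484 and -0.77 ± 0.0333 in control and edited KOPN-8, without overlap (exact permutation p = 0.10).

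**Figure D4:**
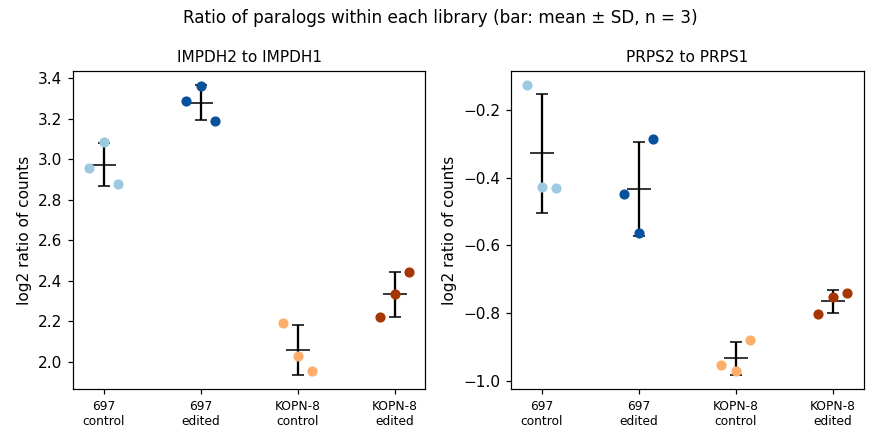
Log2 ratio of the counts of IMPDH2 to IMPDH1 (left) and of PRPS2 to PRPS1 (right) in each library, with bars for the mean ± SD of 3 libraries and axes that do not start at 0. The IMPDH2 to IMPDH1 ratio is higher in the edited than in the control libraries of each line, by 0.31 in 697 and 0.27 in KOPN-8.

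The rest of purine metabolism was read from 5 lists that hold 64 genes, of which 54 passed the filter on low counts. These lists were chosen with earlier results of these data known, so their shares called only describe them. In 697, 5 of the 54 were called, 1 higher and 4 lower, or 9.26% against 9.45% of all genes tested, with a median log2 fold change of -0.04 against 0 for all genes. With the replicate block, 10 were called, 3 higher and 7 lower, and the genes called among all tested went from 1438 to 2319. Without edited 697 replicate 3, 3 were called, and 3 with the 2 groups fitted alone. None of the 8 genes of de novo synthesis was called in 697, with changes from -0.06 to 0.09, nor any of the 19 tested genes of salvage and interconversion. PGD (313 ± 8.20 to 250.5 ± 11.4 CPM, SD, n = 3) and PGLS (47.9 ± 5.12 to 37.3 ± 4.68 CPM), enzymes of the pentose phosphate pathway that supplies ribose 5-phosphate, fell. PNP, which cleaves purine nucleosides, fell from 176 ± 15.7 to 149 ± 7.89 CPM. With 1 library left out at a time, the call was lost for 7 of 12 libraries for PNP and 3 of 12 for PGLS. The dNTP hydrolase SAMHD1 rose from 5.21 ± 1.52 to 9.09 ± 1.98 CPM. The nucleoside transporter SLC29A2 fell (log2 fold change -0.89).

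In KOPN-8, 18 of the 54 were called, 5 higher and 13 lower, or 33.3% against 28.7% of all genes tested, with a median of -0.06 against 0 for all genes. Without any 1 of the 3 KOPN-8 control libraries, 12 were called, 2 higher and 10 lower, and limma on the deposited normalized values called 14, 2 higher and 12 lower. Of 8 tested genes of thiopurine handling other than the 9 enzymes, 1 rose and 5 fell. Those that fell were the nucleoside transporters SLC29A1 (108 ± 8.91 to 54.9 ± 2.41 CPM, SD, n = 3) and SLC28A3 (5.29 ± 0.567 to 0.666 ± 0.0691 CPM), the purine base transporter SLC43A3 (115 ± 7.12 to 82.0 ± 2.99 CPM) and the efflux pumps ABCC4 (58.3 ± 2.26 to 22.9 ± 1.42 CPM) and ABCC5 (62.4 ± 2.43 to 47.8 ± 4.46 CPM). PACSIN2 rose from 118 ± 2.83 to 134 ± 7.21 CPM, a call lost in 6 of 21 alternatives, among them those without each KOPN-8 control library. SLC28A3 had 0 counts in every 697 library. Of the 10 tested genes nearest to ABCC4 on chromosome 13, 6 were called lower in KOPN-8, against 17.2% of all genes, with a median of -0.44. For the other called genes of this list, 5 of 10 neighbours were called lower for PACSIN2 and 4 for SLC29A1. For ABCC5, SLC28A3 and SLC43A3 it was 1 each.

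Of 10 tested genes of purine breakdown in KOPN-8, 4 rose and 3 fell, or 70% called against 28.7% of all genes tested (11.5% higher and 17.2% lower). Since earlier results were known when the list was chosen, this share is not a test of the list. Adenosine deaminase, ADA, fell to 64.1 ± 5.78 CPM from 143 ± 11.97 CPM (SD, n = 3), and the nucleotidases NT5C3B (-0.60) and NT5M (-0.67) fell. The ectonucleotidase NT5E, which makes extracellular adenosine, rose from 41.0 ± 3.07 to 64.0 ± 5.12 CPM. SAMHD1 (0.39), ADA2 (0.37) and ADAL (0.42) also rose. The calls of ADA2 and ADAL were each lost in 7 of 21 alternatives, among them those without each KOPN-8 control library, with adjusted p up to 0.233 and 0.132 (edgeR, DESeq2 or limma), and that of SAMHD1 in 1, limma (0.0993). Of 8 de novo synthesis genes, PPAT, which catalyses the committed step, fell from 113 ± 2.58 to 97.0 ± 0.851 CPM, ADSS1 fell (-0.62) and 6 were not called. TKT (-0.30) in ribose supply, and NME4 (-0.28) and MTAP (-0.21) in salvage, fell, and 8 and 17 genes of these lists were not called. The share called was 25% in de novo synthesis, 11.1% in ribose supply and 10.5% in salvage, each below the 28.7% of all genes. With 1 library left out at a time, the calls of PPAT (6 of 12 libraries), MTAP (6), ADSS1 (4) and NME4 (1, KOPN-8 control replicate 3) were lost. MTAP, which returns adenine to salvage, had counts in both lines, at 107 ± 9.62 CPM in control 697 and 110.4 ± 1.43 CPM in control KOPN-8.

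**Figure D5:**
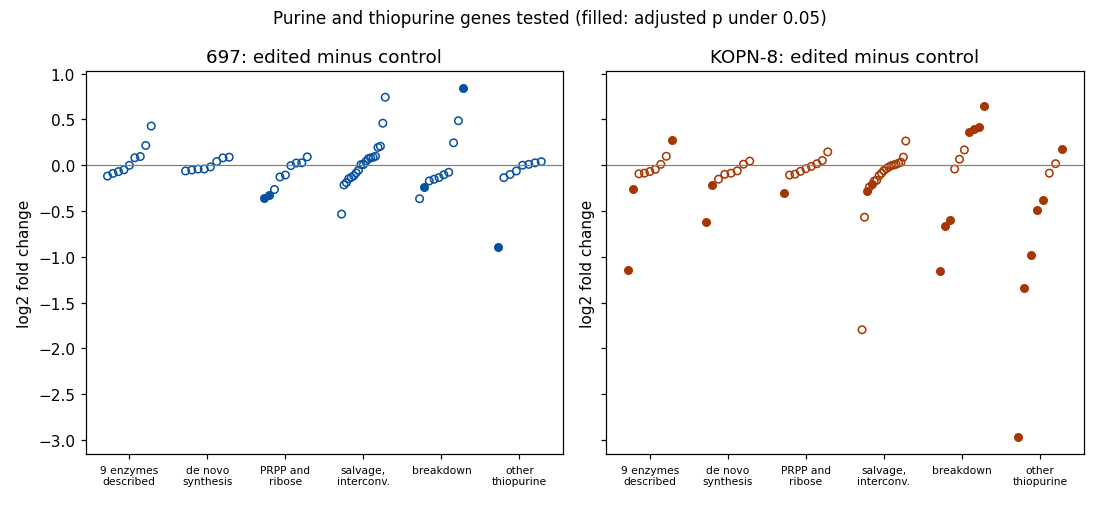
Log2 fold change of edited minus control in 697 (left) and KOPN-8 (right) for each gene tested, grouped by list and sorted within a list, with filled points for an adjusted p under 0.05. De novo synthesis has 0 filled points in 697 and 2 in KOPN-8, and the other genes of thiopurine handling have 6 filled points in KOPN-8, 5 of them below 0. These are 25% and 75% of the lists in KOPN-8, against 28.7% of all genes tested.

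The genes most like the called enzymes were sought over all 12 libraries, as those with the smallest root mean square difference in centred log2 CPM among 10808 genes. For IMPDH1 these were PRKX (0.0654) and LIMS1 (0.0703), and for ITPA they were PIP4K2B (0.0714) and PSMA7 (0.0773). TPMT had no match as close, the nearest being SLC2A13 (0.273) and SDCBP (0.276). Whether the low counts of TPMT, 33 to 150 reads a library, set this distance was not tested. SLC2A13 had a log2 fold change of -0.91 in KOPN-8 and 0.12 in 697, SDCBP -1.05 and 0.12, and TPMT -1.15 and 0.43. All these genes were picked for likeness in the same 12 libraries, so like changes follow from the choice.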

How the data were processed

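The 12 libraries are stranded RNA-seq of poly-A RNA. The tools named per the submitters' processing notes are STAR, Trimmomatic and DESeq2, and the build is hg19. Their versions, the counting tool and its gene models are not stated in what was used here. One deposited table gives unnormalized whole-number counts for each gene symbol. Another, checked on its values, is a deposited signal equal to those counts over a single factor per library, and it served for 1 alternative only.

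The main test was edgeR 4.0.16 under R 4.3.3, applied to all 12 libraries in 4 groups with TMM, filterByExpr by group and robust quasi-likelihood dispersions. All 9 enzymes passed the filter. Each standard error is the absolute log2 fold change over the root of F, and log2 CPM used a prior count of 2. Paralog ratios added 0.5 to each count. Alternatives were other scalings, filters, DESeq2 1.42.0, limma 3.58.1 on log2(deposited value + 1), the 2 groups alone, a replicate block and each library left out. Replicate numbers were taken to pair the 697 libraries, where deviations of same-numbered libraries from their group means correlated at r = 0.105, 0.207 and 0.104. The KOPN-8 libraries were not taken as paired, at the lower r of 0.0508, 0.0362 and 0.0743. These values were still above those of KOPN-8 libraries with different numbers, which reached at most 0.00754. The replicate block had terms for both lines. Libraries of a group varied beyond sampling noise (chi-square per degree of freedom 2.86 to 10.5). The scripts were tested on simulated data.

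The enzymes and lists were chosen with earlier results of these data known. The text names all 9 enzymes, SETD2, each listed gene called in an edited clone with at least 1 CPM in a group, markers, and the 2 genes most like each called enzyme among those with a mean of at least 5 CPM. One further gene first chosen for these lists is not reported here and was left out of them. Transcript lengths and gene order come from GENCODE 29 (GRCh38), used for no coordinates, and promoters, found for 8 of the 9, from RefSeq. Where a library has 0 counts, up to 3 counts are compatible with it, or 0.164 to 0.289 CPM, which covers counting error only.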

Additional observations from a re-analysis of the deposited data

Results flagged for a closer look

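The change in the edited clone differed between the lines, by the edgeR interaction test, for the following genes, each given as the KOPN-8 change minus the 697 change on the log2 scale. Among the 9 enzymes these were TPMT (-1.58), estimated higher in edited 697 and called lower in edited KOPN-8, and ITPA (0.33). SETD2 itself differed by -0.54. Of the 54 tested genes of the other lists, 10 were called, or 18.5% against 19.5% of all genes tested, a share near the background. The change in KOPN-8 was the higher for 3 and the lower for 7, against 7.46% and 12.1% of all genes. Of the transporters and pumps, ABCC4 differed by -1.38, SLC29A1 by -1.003, SLC43A3 by -0.35, ABCC5 by -0.32 and SLC29A2 by 0.81. In purine breakdown and synthesis, ADA differed by -1.39, NT5C3B by -0.50, NT5E by 0.81, PNP by 0.30 and PPAT by -0.30. Of the 20 alternatives, the call was lost in 13 for PPAT, 11 for ABCC5, 10 for NT5C3B, 10 for SLC43A3, 10 for ITPA and 8 for PNP. No library was examined as standing apart within a group, since groups of 3 are too small for that test.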

How the results depend on the processing

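In edited KOPN-8, the 3 calls among the 9 enzymes stood under all 21 alternatives. In 697 the count went from 0 to 1 (IMPDH2) with no low-count filter, in DESeq2 and with the replicate block, and ran from 0 to 1 with single libraries left out. For the difference between lines it went from 2 to 1 with no low-count filter and ran from 1 to 2 with single libraries left out. With the replicate block, the other purine and thiopurine genes called went from 5 to 10 in 697 and from 10 to 17 for the difference between lines, and with the 2 groups fitted alone they went from 5 to 3 in 697. With single libraries left out those counts ran from 3 to 6 in 697, 12 to 18 in KOPN-8 and 6 to 11 for the difference, with 6 without KOPN-8 control replicate 1 or 3 or edited replicate 2. The block changed no other call among the 9 enzymes and left the mean paralog ratios as they were, with exact permutation p = 0.25 or 0.75 in same-numbered pairs, where 3 pairs cannot go below 0.25. In all genes it called 2319 instead of 1438 in 697. For the comparison of the control groups the block was not run, since numbers are not shared between lines, and the fit of 2 groups does not apply to the difference between lines.

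Values that were never called and changed sign stayed near 0. PRPS1 in 697 was 0.000338 with RLE factors, 0.000969 with upper-quartile factors, 0.000424 with no filter and 0.00407 in DESeq2. With single libraries left out, PRPS1 ran from -0.0536 to 0.0774 and ITPA from -0.0977 to 0.0311 in 697, both reaching the highest value without edited replicate 3. In KOPN-8, HPRT1 then ran from -0.0837 to 0.00379 and PRPS1 from -0.111 to 0.0104, both highest without edited replicate 3, and IMPDH2 from -0.0221 to 0.0547. The difference between lines ran from -0.0284 to 0.102 for HPRT1 and from -0.144 to 0.0113 for PRPS1. The cause was not tested. TPMT, at 33 to 150 reads a library, is the enzyme whose values depth limits most.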
